A study of Mus musculus with 8 samples.

Results

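Transcripts that mark 3 tissues outside the spleen were followed in RNA sequencing libraries of whole mouse spleen. The list held 34 of the 52636 genes in the count table. It comprised 15 genes of hepatocytes (the main cells of the liver), 11 genes of pancreatic acinar cells and 8 genes of adipocytes (fat cells), all matched by symbol. They were chosen as a read on neighbouring or carried-over tissue, with their levels in these libraries already known, so those levels and the tests of them are a description and support nothing on their own. Each tissue is described apart.

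All mice were C57BL/6 and 6 weeks old. They were wild type or carried the R527C mutation of Lmna, the gene of lamins A and C, and were sampled without irradiation at day 0 or at day 7 after 4 Gy. Each of the 4 groups (wild type day 0, mutant day 0, wild type day 7, mutant day 7) held 2 libraries, numbered 1 and 2 as in the sample titles. Whether the mutation was on 1 or both copies of the gene, whether the libraries came from separate mice, and the sex of the mice are not stated in the labels, so p-values measure the spread between these libraries, which may be technical.

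The libraries held 12100784 to 19455470 gene counts. Levels are given as counts and as CPM, the count relative to the library size after TMM scaling (a correction for differences in RNA composition). A count of 3, the most that an observed 0 allows, stood for 0.131 to 0.35 CPM. Spleen identity was clear in each library: Tlx1, a transcription factor needed to form the spleen, had 136 to 581 counts, and 18 lymphoid genes summed to 6660 to 9540 CPM at day 0 and 1830 to 4150 at day 7. All 4 day 0 libraries had Y-linked transcripts (Ddx3y at 1437 counts or more) and at most 6 counts of Xist, the RNA of the inactive X chromosome. All 4 day 7 libraries had at least 11836 counts of Xist and 0 of Ddx3y, so irradiation, day and sex-linked transcripts cannot be told apart. The 2 mutant day 7 libraries stood apart from each other in many genes, and results that rest on them are given with and without each.

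Hepatocytes secrete albumin, apolipoproteins and clotting factors into the blood, and carry enzymes of nitrogen and drug metabolism. Acinar cells make digestive enzymes, most as inactive precursors, and the tail of the pancreas reaches the hilum of the spleen. Adipocytes store triglyceride in a droplet coated by perilipins and secrete hormones such as adiponectin, and fat surrounds the splenic vessels. In bulk RNA, fewer cells of a type and less RNA per cell cannot be told apart.

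Promoter sequence is shown only for members with a match to the letters searched for. The stretches shown were picked by that match, so they do not stand for the other members. A RefSeq promoter (GRCm38.p6) was found for 28 of the 34 members. In the 250 bases before the start site, the letters GTTAAT, 1 arm of the palindrome read by the liver factor HNF1, were searched on both strands. They were present in 4 of 11 hepatocyte promoters (Alb, Serpina1a, Fgb and Fga), in 2 of 10 acinar promoters (Cpa1 and Ctrb1, both over 200 bases away) and in 0 of 7 adipocyte promoters, against 6.52% of 27025 promoters in the table. In all 4 hepatocyte promoters the letters lay within the last 43 bases before the RefSeq start. Gene starts of GENCODE M21 differ from these. That of Fga (83026076) lies inside the stretch printed below, so its match is within the gene there. Those of Alb (90460897) and Serpina1a (103863562) lie further downstream. The 120 bases before the start are printed 5′ to 3′ on the strand of the gene, with the match in capitals (ATTAAC is the match on the other strand). Alb lies at chr5:90460750-90460869 on the plus strand, Fga at chr3:83026033-83026152 on the plus strand, Fgb at chr3:83049864-83049983 on the minus strand and Serpina1a at chr12:103863620-103863739 on the minus strand.
Alb: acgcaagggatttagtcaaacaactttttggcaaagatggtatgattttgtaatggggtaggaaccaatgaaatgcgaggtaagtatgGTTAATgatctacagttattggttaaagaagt
Fga: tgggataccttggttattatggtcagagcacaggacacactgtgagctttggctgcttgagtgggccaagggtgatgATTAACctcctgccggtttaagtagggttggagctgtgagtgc
Fgb: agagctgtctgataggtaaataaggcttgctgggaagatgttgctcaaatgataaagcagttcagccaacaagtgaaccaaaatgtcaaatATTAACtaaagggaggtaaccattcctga
Serpina1a: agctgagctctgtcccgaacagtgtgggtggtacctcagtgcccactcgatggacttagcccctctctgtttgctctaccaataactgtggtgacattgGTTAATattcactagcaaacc

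The letters CACCTG, an E box of the kind bound by the acinar factor PTF1, were searched in the same way. They were present in 7 of 10 acinar promoters, 4 of 11 hepatocyte promoters and 2 of 7 adipocyte promoters, against 17.1% of all promoters. Cela1, which was abundant in these spleens, and 3 acinar members that were nearly absent from them are shown to set them side by side (CAGGTG is the match on the other strand). Cela1 lies at chr15:100687921-100688040 on the minus strand, Cela3b at chr4:137430521-137430640 on the minus strand, Cpb1 at chr3:20275734-20275853 on the minus strand and Try4 at chr6:41302152-41302271 on the plus strand. A match is a description of letters and not a site, and no binding was measured here.
Cela1: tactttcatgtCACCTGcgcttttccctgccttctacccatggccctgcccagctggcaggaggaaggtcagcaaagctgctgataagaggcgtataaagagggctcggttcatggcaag
Cela3b: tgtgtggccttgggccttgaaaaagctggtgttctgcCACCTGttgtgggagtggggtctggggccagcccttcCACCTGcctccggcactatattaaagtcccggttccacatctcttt
Cpb1: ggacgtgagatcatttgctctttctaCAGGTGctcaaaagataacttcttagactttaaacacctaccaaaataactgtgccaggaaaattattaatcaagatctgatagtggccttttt
Try4: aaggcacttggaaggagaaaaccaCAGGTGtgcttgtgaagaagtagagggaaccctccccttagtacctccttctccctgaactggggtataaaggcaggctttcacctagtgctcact

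**Figure D1:**
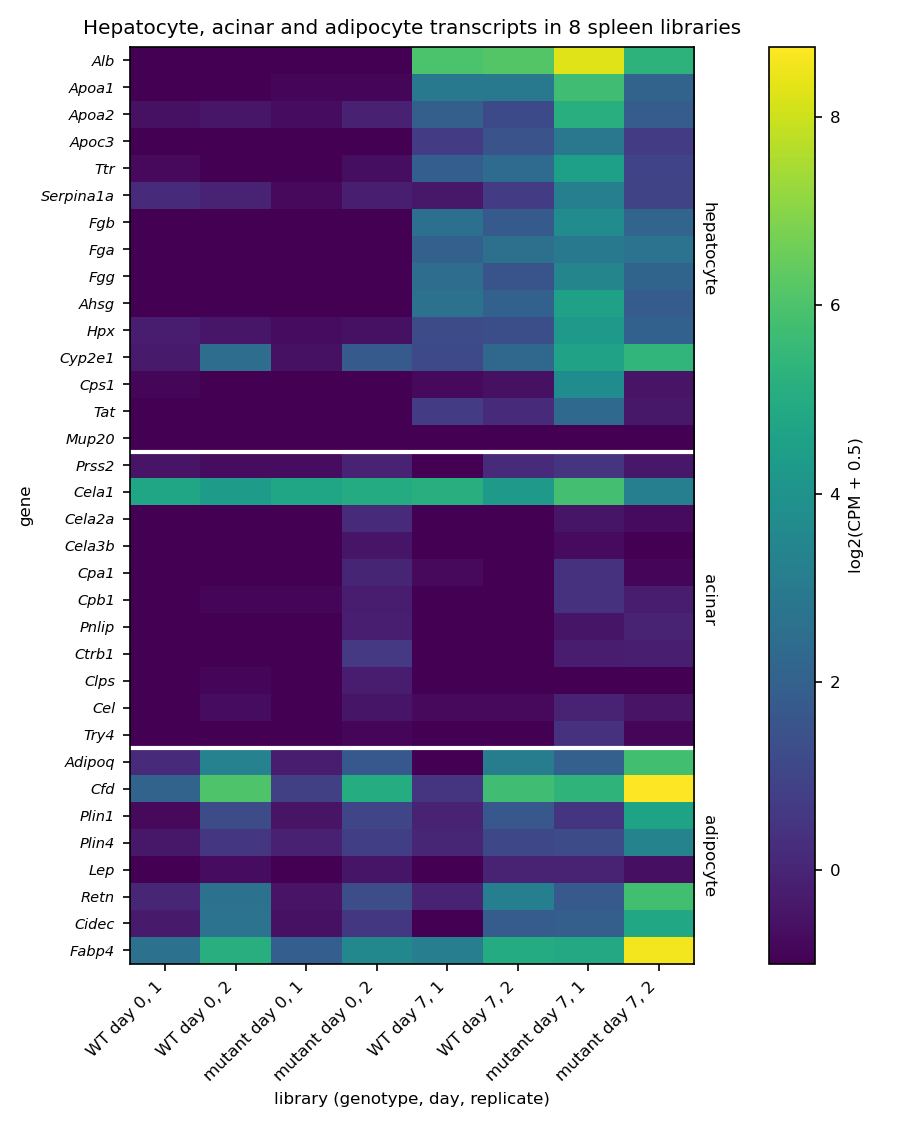
Level of each of the 34 genes (rows, grouped by tissue) in each of the 8 libraries (columns), as log2(CPM + 0.5) by colour. Hepatocyte genes are dark in the 4 day 0 libraries and brightest in mutant day 7 replicate 1, Cela1 is bright in every library, and adipocyte genes are brightest in mutant day 7 replicate 2.

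Hepatocyte transcripts were near 0 in all day 0 spleens and present in all day 7 spleens of both genotypes. Of the 15 members, 8 had 0 counts in all 4 day 0 libraries, and 12 had over 3 counts in all 4 day 7 libraries. Mup20, a major urinary protein, had 0 counts in all 8 libraries. Per length, Alb was the highest member in each day 7 library except mutant day 7 replicate 2, where Cyp2e1 (19.8 CPM per kb) was above Alb (16.5). Within the mutant day 7 group, replicate 1 was the higher in CPM for 13 of the 14 detected members, and Cyp2e1 was the exception. For Fga this order came with the TMM scaling. Its 62 and 110 counts, relative to raw totals of 12147309 and 16788531, were higher in replicate 2.

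Alb, which encodes the main protein of blood plasma, had 0 counts in each of the 4 day 0 libraries. It had 698 and 799 counts in wild type day 7 and 2674 and 698 counts in mutant day 7. In CPM these were 62.9 and 70.6 in wild type, and 312 and 38.6 in mutants. The wild-type pair lay close together, and the mutant pair lay on either side of it. Against the 3-count floor of the pooled day 0 libraries, Alb was at least 858-fold higher at day 7 in wild type and at least 1880-fold higher in mutants. The mutant bound rests on replicate 1: with replicate 2 alone it was 572-fold, below the wild-type bound.

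The apolipoproteins carry lipid in blood. Apoa1 had 0, 0, 1 and 1 counts at day 0 (wild type, then mutant), 80 and 82 in wild type day 7, and 454 and 68 in mutant day 7. Apoa2 had 4, 4, 3 and 9 counts at day 0, 37 and 20 in wild type day 7, and 288 and 55 in mutant day 7. Apoc3, which slows the clearance of triglyceride and neighbours Apoa1 on chromosome 9, had 0 at day 0, 13 and 26 in wild type day 7, and 59 and 20 in mutant day 7. For each of the 3 the day 0 and day 7 values did not overlap in either genotype, and mutant day 7 replicate 1 was the highest library.

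The 3 fibrinogen chains Fga, Fgb and Fgg, which polymerise to fibrin in clotting, lie next to each other on chromosome 3. All 3 had 0 counts in every day 0 library. Fga had 39 and 63 counts in wild type day 7, and 62 and 110 in mutant day 7. Fgb had 59 and 33 in wild type and 108 and 73 in mutants. Fgg had 56 and 27 in wild type and 87 and 70 in mutants. The fibrinogen genes differed less than Alb between the 2 mutant day 7 libraries: replicate 2 was at 0.841 (Fga), 0.32 (Fgb) and 0.381 (Fgg) times the CPM of replicate 1, against 0.124 for Alb. Fga was at least 58.5-fold higher at day 7 in wild type and at least 95.6-fold higher in mutants.

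Other secreted proteins were likewise at or near 0 at day 0. Ahsg, encoding the plasma glycoprotein fetuin-A, had 0 counts at day 0, 63 and 41 in wild type day 7, and 198 and 55 in mutant day 7. Ttr, encoding the thyroxine and retinol carrier transthyretin, had 2, 0, 0 and 3 counts at day 0, 36 and 54 in wild type day 7, and 188 and 26 in mutant day 7. Hpx, encoding the haem scavenger hemopexin, had 8, 4, 3 and 4 counts at day 0, 21 and 23 in wild type day 7, and 162 and 65 in mutant day 7. Serpina1a, an inhibitor of neutrophil elastase with near-identical copies, differed from these. It had 14, 7, 2 and 8 counts at day 0 and 3 and 13 in wild type day 7, so that the wild-type groups overlapped, against 75 and 27 in mutant day 7. Its reads may belong in part to its copies.

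The intracellular enzymes were less uniform than the secreted proteins. Tat, which starts tyrosine breakdown, had 0 counts at day 0, 13 and 7 in wild type day 7, and 39 and 5 in mutant day 7. Cps1, the first enzyme of the urea cycle, had 1, 0, 0 and 0 counts at day 0, 1 and 2 in wild type day 7, and 109 and 4 in mutant day 7. Cps1 was therefore at or under the 3-count floor in both wild-type day 7 libraries, in which Alb was at 62.9 and 70.6 CPM, and was high only in mutant day 7 replicate 1 among the 8 libraries.

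Cyp2e1, a cytochrome that oxidises ethanol and acetone, did not follow the other 14 genes. It had 7 and 80 counts in wild type day 0, 4 and 62 in mutant day 0, 19 and 48 in wild type day 7, and 204 and 770 in mutant day 7. The library numbered 2 was the higher in every group, and the highest library was mutant day 7 replicate 2, as for the adipocyte members below. Cyp2e1 is known to be expressed in fat as well as in liver. Without it, the summed level of the other 14 hepatocyte members was 0.393 to 1.27 CPM in the 4 day 0 libraries, 101 and 105 in wild type day 7, and 526 and 70.6 in mutant day 7. With it, mutant day 7 replicate 2 was at 113, above both wild-type libraries, so the order of these 3 libraries turned on this gene.

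The proportions among hepatocyte members differed between the day 7 libraries. Per 100 counts of Alb there were 0.143 counts of Cps1 (95% exact interval 0.00362 to 0.801) and 0.25 (0.0303 to 0.907) in wild type, against 4.08 (3.33 to 4.94) in mutant replicate 1 and 0.573 (0.156 to 1.47) in mutant replicate 2. Fga ran the other way, at 5.59 (3.94 to 7.72) and 7.88 (6 to 10.2) in wild type, 2.32 (1.77 to 2.98) in mutant replicate 1 and 15.8 (12.8 to 19.3) in mutant replicate 2. Apoa1 varied less, from 9.74 (7.48 to 12.5) in mutant replicate 2 to 17 (15.3 to 18.8) in mutant replicate 1. The libraries thus held hepatocyte transcripts in unequal proportions. Between the 2 mutant libraries the intervals did not overlap for Cps1, Fga, Fgb, Fgg, Apoa1, Ttr, Hpx and Cyp2e1. They overlapped for Ahsg and Apoa2. The intervals cover counting error only, since PCR copies are not independent molecules.

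**Figure D2:**
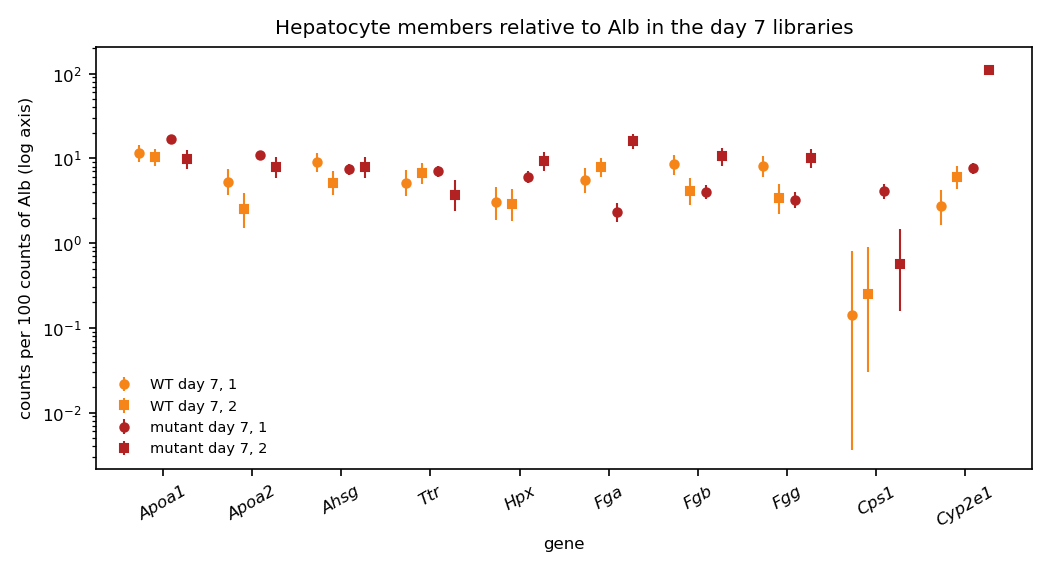
Counts of 10 hepatocyte members per 100 counts of Alb (log axis) in the 4 day 7 libraries, with 95% exact intervals of counting error. Intervals of Ahsg overlap across the 4 libraries, those of Apoa1 and Ttr separate between the mutant libraries, and Cps1 is high in mutant replicate 1 (4.08) and Cyp2e1 in mutant replicate 2 (110).

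In the fit of all genes, edgeR's quasi-likelihood test with Benjamini-Hochberg adjustment called 3 of the 13 hepatocyte members that passed the low-count filter, all higher at day 7 in mutants. They were Alb (adjusted p = 0.0439), Fga (adjusted p = 0.0296) and Hpx (log2 fold change 6.08, SE 0.94, adjusted p = 0.0416). In every day 0 library, Alb, Apoa1, Apoa2, Apoc3, Ttr, Fga, Fgb, Fgg, Ahsg, Hpx and Tat had at most 9 counts. These members passed the filter through their day 7 counts, so only a higher level at day 7 could be called for them. By limma-voom 2 were called in mutants (Fga and Fgg, so not Alb or Hpx), and by DESeq2 all 13. Over all 17327 genes tested, edgeR called 0.254% higher and 0.346% lower in that comparison. DESeq2 called 1092 genes higher and 870 lower there, and limma-voom 43 and 62. In wild type 0 members were called by edgeR (0.0115% of all genes called higher and 0.0462% lower) and 0 by limma-voom. DESeq2 called 10 members, against 457 higher and 704 lower of all genes. At an unadjusted p under 0.05 there were 11 members, against 2991 of all genes. Without mutant day 7 replicate 1 the log2 fold changes of the 13 tested members in mutants ran from 2.63 to 12.39. Without mutant day 7 replicate 2 they ran from 3.82 to 15.20. More members were called in both of these fits, as were more of all genes. Without any 1 of the other 6 libraries, wild-type or mutant, 0 members were called in either genotype, and with only the 4 mutant libraries 0 were called in mutants. Groups did not overlap for 12 of 15 members in wild type and 14 of 15 in mutants, all higher at day 7, against 29.7% and 26.9% of all genes. The median difference in log2(CPM + 0.5) over the 15 members was 2.11 in wild type and 3.77 in mutants, against 0.04 and 0.05 over all genes tested. In mutants it was 2.64 without day 7 replicate 1 and 4.71 without replicate 2. The spleen's own lymphocyte genes differed over the same split. The sums of the 18 lymphoid genes, given above, did not overlap between day 0 and day 7 and were lower at day 7. EdgeR called 0 of the 18 in either genotype. At an unadjusted p under 0.05 there were 4 in wild type and 2 in mutants, against 2991 and 3836 of all genes. The part of the lymphoid genes in the hepatocyte values was not tested.

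Between genotypes, 0 hepatocyte members were called at day 0 or at day 7 by edgeR, DESeq2 or limma-voom, and 0% of all genes by edgeR. At an unadjusted p under 0.05 there were 0 at day 0 and 4 at day 7 (Apoa2, Serpina1a, Hpx and Cyp2e1, all higher in mutants). Of all 17327 genes, 388 and 696 had such a p. At day 7 the genotypes did not overlap for 5 of 15 members, all higher in mutants, against 10.4% of all genes. Without mutant day 7 replicate 2 the log2 fold changes at day 7 ran from 0.61 to 3.66. Without replicate 1 they ran from -1.63 to 3.88, and were negative for 6 of the 13 tested members (Ahsg, Alb, Apoa1, Apoc3, Tat and Ttr). The difference between the irradiation effects of the genotypes was called for 0 members by edgeR, DESeq2 or limma-voom. At an unadjusted p under 0.05 there were 2 members, against 277 of all genes.

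A wider list of 66 hepatocyte genes did not separate the days in its summed level, which was 88.3 and 100 CPM in wild type day 0, 183 and 346 in mutant day 0, 111 and 145 in wild type day 7, and 382 and 307 in mutant day 7. Of the 66, 20 had 0 counts in all 4 day 0 libraries, 32 had over 3 counts in all 4 day 7 libraries, and 49 were highest in mutant day 7 replicate 1. In mutants 4 of the 41 tested were called higher at day 7 (Apoc1, Apoc4, Itih4 and Vtn) and 0 lower. Any of the 41 with 0 counts at day 0 passed the filter through day 7 and could only be called higher. In wild type 0 were called by edgeR and 16 by DESeq2 (457 higher and 704 lower of all genes). There, 22 had an unadjusted p under 0.05, against 2991 of all 17327 genes. Ass1, Hp and Serpina1e were called lower in mutants when mutant day 7 replicate 2 was left out. As over all genes tested, the mutant count rose when either mutant day 7 library was left out. Without any 1 of the other 6 libraries it was 0 to 2.

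The 4 most abundant of the wider list were genes that spleen cells also express. Hp, encoding the haemoglobin scavenger haptoglobin and also made by neutrophils, was at 39.5 to 278 CPM at day 0 and 5.5 to 124 at day 7. Ass1, of arginine synthesis, was at 21.3 to 29.3 CPM at day 0 and 4.67 to 27.6 at day 7, lowest in the library with the most Alb. Trf, the iron carrier transferrin, was at 7.28 to 8.7 CPM at day 0, 14.2 and 26.7 in wild type day 7, and 37.7 and 31.4 in mutant day 7. Apoc1, also made by macrophages, was at 2.65 to 3.1 CPM at day 0, 5.23 and 6.18 in wild type day 7, and 18.7 and 20.9 in mutant day 7 (log2 fold change in mutants 2.78, SE 0.36, adjusted p = 0.0286).

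Of this list, 2 secreted proteins were picked after their values were seen. Gc, the vitamin D carrier, had 0, 1, 0 and 0 counts at day 0, 54 and 77 in wild type day 7, and 202 and 62 in mutant day 7. Kng1, the precursor of bradykinin, had 0 at day 0, 34 and 35 in wild type day 7, and 96 and 40 in mutant day 7.

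Liver genes with a known sex bias were read separately, because day 7 libraries carried Xist and day 0 libraries Y-linked transcripts. Of 15 genes higher in male liver, 10 had 0 counts in all 8 libraries, among them Mup20, Cyp4a12a, Cyp2d9 and Hsd3b5. Of 18 genes higher in female liver, 3 had 0 counts in all libraries and 12 had 0 in all day 0 libraries, and 10 were highest in mutant day 7 replicate 1. Among the latter, Cyp2b13 had 19 counts and Cyp2c40 had 16 in that library, with 0 in each day 0 library (named after their values were seen). C6, a complement protein (11.6 to 62 CPM), and Fmo2, a monooxygenase (3.31 to 51.5 CPM), led the male and the female list, and both were present in every day 0 library. With these included, the male list summed to 16.6 to 21.3 CPM at day 0, 14.4 and 19.4 in wild type day 7, and 66.2 and 24 in mutant day 7, and the female list to 3.93 to 13.3, 8.2 and 54, and 40.3 and 38.4.

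By the correlation of log2(CPM + 0.5) with the summed hepatocyte CPM over the 8 libraries, the 5 genes outside the list most like it, among 12743 genes of at least 1 CPM, were Ctnnd1 (Pearson r = 0.988), Serpinc1 (0.986), Tst (0.985), Nenf (0.984) and Cdkn1a (0.984). Serpinc1, the liver-made antithrombin, was at 0.611 to 1.39 CPM at day 0 and 4.93 to 7.12 at day 7. Cdkn1a, the p53 target that arrests the cell cycle, was at 6.37 to 10.7 CPM at day 0, 49.2 and 49.6 in wild type day 7, and 158 and 62.5 in mutant day 7. These correlations are a description over 8 libraries that share the split between day 0 and day 7.

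Acinar transcripts fell into a single abundant gene and 10 that were nearly absent. Cela1, chymotrypsin-like elastase 1, was counted in every spleen library, at 600 and 317 counts in wild type day 0, 590 and 672 in mutant day 0, 391 and 210 in wild type day 7, and 487 and 159 in mutant day 7. In CPM it was 26.4 and 20, 25.7 and 31.3, 35.2 and 18.5, and 56.9 and 8.8 in the same order. The lowest and the highest library were both mutant day 7, so that this pair spanned all the others. Per length Cela1 was at 3.82 to 24.7 CPM per kb, whereas the highest of the other acinar members, Ctrb1, reached 1.17.

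Cela1 was the only acinar member to pass the low-count filter, and edgeR, DESeq2 and limma-voom called it in 0 of the 5 comparisons (0 at an unadjusted p under 0.05). Its log2 fold change at day 7 was 0.21 (SE 0.73) in wild type and 0.20 (SE 0.73) in mutants, and between genotypes 0.30 (SE 0.73) at day 0 and 0.28 (SE 0.73) at day 7. Over the 14 alternative fits the value in mutants ran from -1.75, without mutant day 7 replicate 1, to 0.85. Between genotypes at day 7 it ran from -1.57 to 1.02.

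The digestive enzymes other than Cela1 were found mainly in 3 libraries. The 10 members other than Cela1 summed to 89 counts in mutant day 0 replicate 2, 41 in mutant day 7 replicate 1 and 34 in mutant day 7 replicate 2. The other 5 libraries held 2 to 8 counts in sum, 4 of them in mutant day 0 replicate 1. The 3 higher libraries were all mutant, but the other mutant day 0 library was as low as the wild-type ones. Summed levels were 4.14, 4.79 and 1.88 CPM in the 3 and 0.174 to 0.706 in the rest.

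In mutant day 0 replicate 2 the enzymes spanned proteases and lipases. Ctrb1, a chymotrypsinogen, had 22 counts there, 3 and 7 in mutant day 7 and 0 in the other 5 libraries. Of the further proteases, Cela2a (an elastase) had 13 counts, Cpa1 and Cpb1 (carboxypeptidases) 11 and 7, Prss2 (a trypsinogen) 10 and Cela3b 5 in that library, although Prss2 also had up to 8 counts elsewhere. Of the fat-digesting proteins, Pnlip (pancreatic lipase) had 8, Clps (its colipase) 7 and Cel (carboxyl ester lipase) 5. Try4, a trypsinogen with near-identical copies, differed, with 1 count there and its highest count of 7 in mutant day 7 replicate 1. None of these 10 passed the filter, and none was tested. Cpa1, Cpb1 and Try4 each had 7 counts in mutant day 7 replicate 1, and Pnlip had 8 in mutant day 7 replicate 2. At day 7 the genotypes did not overlap for 6 of the 11 members, all higher in mutants and each at 8 counts or fewer. The share was 10.4% over the genes that passed the filter. These 6 did not pass it, so that share is no fair comparison for them.

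Of 27 further acinar genes, 9 had 0 counts in all 8 libraries and 3 passed the filter, with 0 called in any comparison by edgeR or DESeq2 and 0 at an unadjusted p under 0.05 in either irradiation comparison. The most abundant were Klk1 (kallikrein 1, 0 to 3.88 CPM), Zg16 (a zymogen granule protein, 0 to 5.02 CPM), Ctrl (chymotrypsin-like, 0.117 to 2.77 CPM) and Gp2 (a granule membrane protein, 0 to 1.05 CPM). Zg16 was at 2.37 CPM in mutant day 0 replicate 2 and 1.96 to 2.21 in the other day 0 libraries. Over the 27 genes that library had the highest sum (10.1 CPM, against 6.29 to 8.67 in the other 7) and the fewest genes at 0 counts (12, against 15 to 21). Of the hormones of the pancreatic islets, Ins1, Ins2, Sst and Ppy had 0 counts in all libraries, which allows up to 3 counts in each, and Gcg (glucagon) had 0 to 14, with 3 in mutant day 0 replicate 2.

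The genes most like the acinar sum, which Cela1 dominates, were Golga2 (r = 0.985), Med20 (0.975), Ccdc57 (0.974), Spc24 (0.973) and Ticrr (0.973). Spc24, of the kinetochore, and Ticrr, of replication initiation, are genes of dividing cells: Spc24 was at 61.7 CPM in mutant day 7 replicate 1 and 16.9 in replicate 2. Without Cela1, the highest correlation was that of Aatk, at 0.866.

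**Figure D3:**
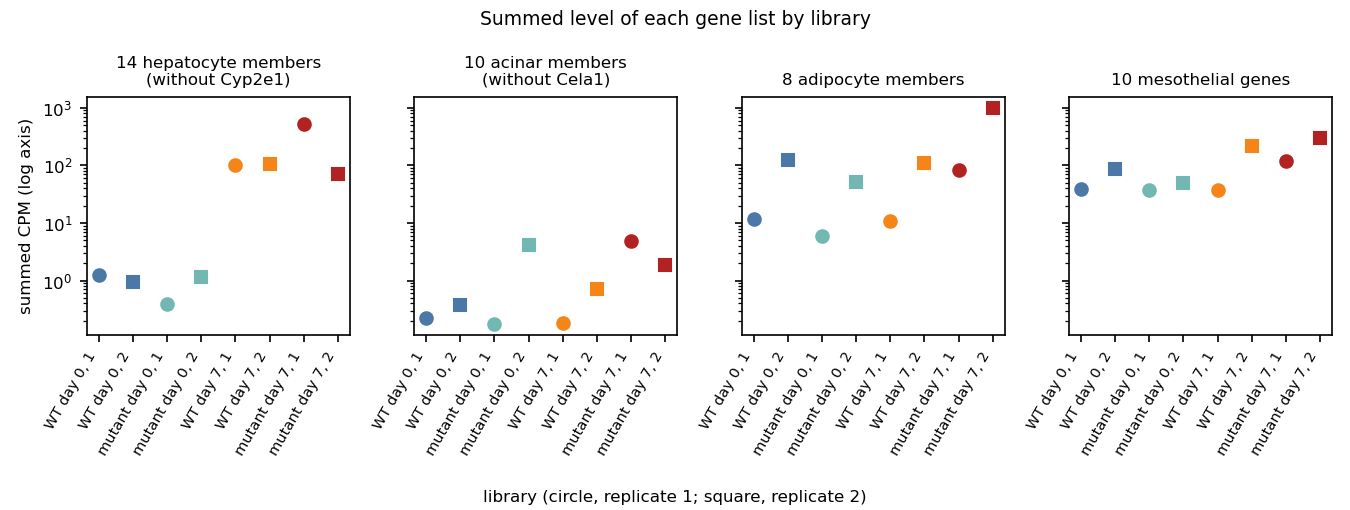
Summed CPM (log axis) of 14 hepatocyte, 10 acinar and 8 adipocyte members and of 10 mesothelial genes in each library, with circles for replicate 1 and squares for replicate 2. Hepatocyte sums separate day 0 (at most 1.27) from day 7 (at least 70.6), acinar sums are highest in 3 mutant libraries, and adipocyte sums are higher in the square of every group.

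Adipocyte transcripts differed mainly between the 2 libraries of each group. The 8 members summed to 11.5 and 126 CPM in wild type day 0, 5.98 and 51.8 in mutant day 0, 10.8 and 111 in wild type day 7, and 82.3 and 985 in mutant day 7. The library numbered 2 was the higher in all 4 groups for 7 of the 8 members, against 14.8% of all genes tested. The exception was Lep, the satiety hormone leptin, with at most 5 counts in any library. Since the replicate numbers of different groups share only a number, this order is a description of these 8 libraries.

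The secreted products ranged widely. Adipoq, encoding adiponectin, had 15 and 149 counts in wild type day 0, 8 and 59 in mutant day 0, 0 and 93 in wild type day 7, and 30 and 1000 in mutant day 7. Cfd, encoding complement factor D (adipsin), had 87 and 1056, 30 and 687, 10 and 613, and 346 and 7755 counts in the same order. Retn, encoding resistin, had 12 and 92, 5 and 43, 5 and 98, and 24 and 992. For these 3 genes the ranges of the groups overlapped in wild type, where the 2 libraries of a group were further apart than day 0 from day 7. Replicate 2 exceeded replicate 1 by 10.6 to 60.1 times in CPM for Cfd and by 9.17 to 19.6 times for Retn.

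Genes of the lipid droplet and of fatty acid handling were also at their higher count in replicate 2 of every group. Plin1, the perilipin that guards stored triglyceride, had 2 and 30, 5 and 33, 5 and 30, and 8 and 447 counts (wild type day 0, mutant day 0, wild type day 7, mutant day 7). Cidec, which fuses droplets, had 7 and 96, 4 and 21, 0 and 35, and 29 and 513. Plin4, a droplet coat protein also made in muscle, had 6 and 15, 10 and 27, 6 and 19, and 16 and 175. Fabp4, a fatty acid carrier found in macrophages and endothelium as well, had 132 and 553, 75 and 238, 94 and 360, and 248 and 6905. Its replicate 2 exceeded replicate 1 by 3.39 to 13.2 times, and in CPM it was 29 and 382 in mutant day 7 against 3.27 to 35 elsewhere.

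Relative to Cfd, Adipoq varied less between libraries than its level did. Ratios were taken only where Cfd had at least 20 counts, which left out wild type day 7 replicate 1 (10 counts). Per 100 counts of Cfd there were 14.1 counts of Adipoq (95% exact interval 11.8 to 16.8) in wild type day 0 replicate 2, 15.2 (12.1 to 18.9) in wild type day 7 replicate 2 and 12.9 (12.1 to 13.8) in mutant day 7 replicate 2. Mutant day 0 replicate 2, at 8.59 (6.47 to 11.2), lay below these 3. Other members differed between libraries as well. Per 100 counts of Cfd, Retn was at 6.26 (4.49 to 8.52) in mutant day 0 replicate 2 and 16 (12.8 to 19.8) in wild type day 7 replicate 2. Cidec was at 3.06 (1.88 to 4.71) in mutant day 0 replicate 2 and 9.09 (7.3 to 11.2) in wild type day 0 replicate 2. Fabp4 was at 34.6 (29.8 to 40.2) in mutant day 0 replicate 2 and 250 (162 to 396) in mutant day 0 replicate 1. The libraries numbered 1 in the day 0 groups thus held more Fabp4 relative to Cfd than those numbered 2.

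**Figure D4:**
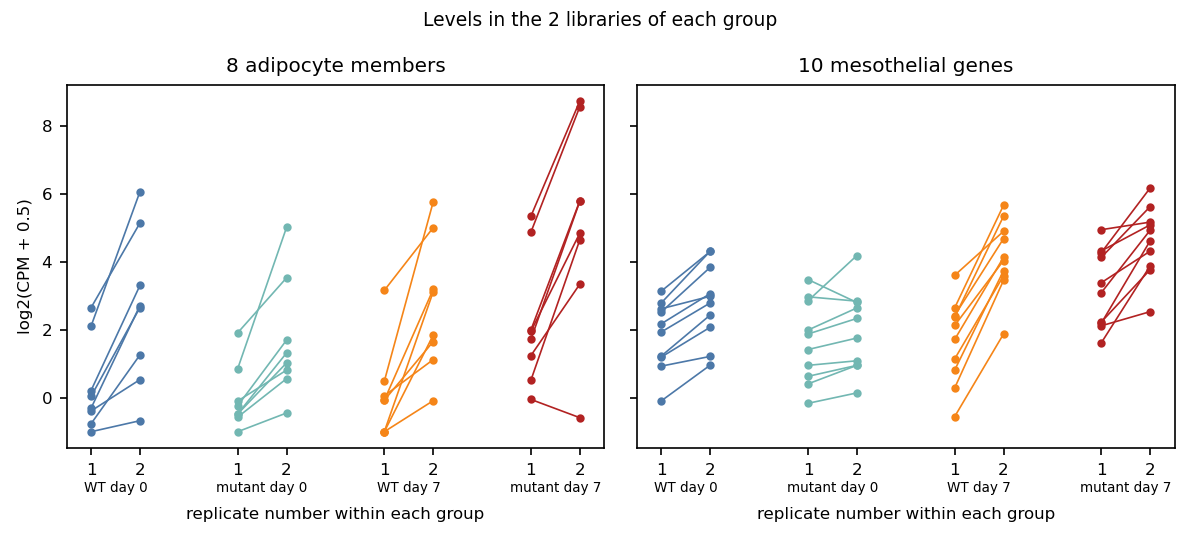
Level of each adipocyte member (left) and each mesothelial gene (right) in the 2 libraries of each group, as log2(CPM + 0.5), with a line joining replicates 1 and 2 of the group. Lines rise for 7 of 8 adipocyte members in all 4 groups (Lep falls in mutant day 7) and for 8 of 10 mesothelial genes.

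Tests of the 7 adipocyte members that passed the filter called 0 in any of the 5 comparisons by edgeR with 1 term per group. In mutants at day 7, where edgeR called 0.254% of all genes higher, limma-voom called 0 members and DESeq2 called 1 (Fabp4). DESeq2 called 1092 of all genes higher and 870 lower there. At an unadjusted p under 0.05 there were 4 members, against 3836 of all 17327 genes. Fabp4 had the smallest value there (log2 fold change 4.84, SE 1.45, adjusted p = 0.128). Without mutant day 7 replicate 1 the log2 fold changes in mutants ran from 3.46 to 5.69. Without replicate 2 they ran from -0.05 (Plin1) to 2.41 (Cidec). In wild type at day 7 the log2 fold changes ran from -1.02 (Cidec, SE 1.73) to 0.90 (Plin4, SE 1.08), and 0 had an unadjusted p under 0.05. Each of these 7 changed sign when some single library or setting was changed. Groups did not overlap, with day 7 higher, for 6 of 8 members in mutants (26.9% of all genes) and for 0 in wild type. The median difference in log2(CPM + 0.5) over the 8 members was 3.25 in mutants and 0.20 in wild type, against 0.05 and 0.04 over all genes tested. In mutants it was 4.96 without day 7 replicate 1 and 1.29 without replicate 2. Between the irradiation effects of the genotypes 0 members were called by edgeR, DESeq2 or limma-voom, with 1 (Fabp4) at an unadjusted p under 0.05 (277 of all genes).

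Between genotypes at day 7 all 7 tested adipocyte members had positive log2 fold changes, from 2.39 (Plin4, SE 1.04) to 3.36 (Cidec, SE 1.80). Without mutant day 7 replicate 2 they ran from -0.79 (Plin1) to 1.06 (Cidec) and were negative for 3 (Adipoq, Plin1 and Retn), and without replicate 1 they ran from 3.16 to 4.29, with 0 called either way. None was called by the 3 tools, and 1 (Fabp4) had an unadjusted p under 0.05 (696 of all 17327 genes). The groups did not overlap for 2 of the 8 members (10.4% of all genes). At day 0 the largest difference was that of Cidec, at -2.44 (SE 1.80), with 0 called by these tools and 0 at an unadjusted p under 0.05.

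Of 37 further adipocyte genes 35 were tested, and 0 were called by edgeR in either irradiation comparison. At an unadjusted p under 0.05 there were 18 in mutants and 2 in wild type, against 3836 and 2991 of all 17327 genes. DESeq2 called 8 and 1, against 1092 higher and 870 lower of all genes in mutants and 457 and 704 in wild type. Of these 37, 15 were higher in replicate 2 of all 4 groups and 24 were highest in mutant day 7 replicate 2. The 4 most abundant are made by many cells: Scd1 (a fatty acid desaturase) was at 437 CPM in mutant day 7 replicate 2 and 25.7 in replicate 1, and Lpl (lipoprotein lipase) at 390 and 79.2. Cd36 and Acsl1 (uptake and activation of fatty acids) ran the other way, at 204 and 388 CPM for Cd36 and 70.5 and 247 for Acsl1. The 8 genes of a brown fat list summed to 1.54 and 1.01 CPM in wild type day 0, 3.88 and 7.4 in mutant day 0, 0.18 and 0.706 in wild type day 7, and 0.584 and 2.21 in mutant day 7, so replicate 2 was the higher in 3 of the 4 groups and the highest library was a mutant day 0 one. Ucp1, the uncoupling protein of brown fat, had at most 7 counts, in mutant day 7 replicate 2.

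The genes most like the adipocyte sum over the 8 libraries were Car3 (r = 0.993), Retnla (0.965), Krt8 (0.963), Pacsin3 (0.962) and Cdo1 (0.958). Car3, a carbonic anhydrase abundant in fat and muscle, was at 2.2 and 31.9 CPM in wild type day 0, 1.66 and 12.6 in mutant day 0, 2.43 and 35.1 in wild type day 7, and 35.2 and 402 in mutant day 7. Krt8, a keratin of simple epithelia including mesothelium, was at 0.48 to 1.99 CPM in 7 libraries and 8.69 in mutant day 7 replicate 2. As above, the correlations rest on 8 points that share the order of the replicates.

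Mesothelium, the sheet that covers the spleen and other abdominal organs, also had a higher summed level in replicate 2 of every group. Its 10 genes summed to 38.6 and 86.5 CPM in wild type day 0, 37.4 and 49.3 in mutant day 0, 37.6 and 217 in wild type day 7, and 119 and 298 in mutant day 7. Replicate 2 was higher in all groups for 8 of the 10, against 14.8% of all genes tested. The 4 most abundant were Gpm6a, Upk3b, Wt1 and Msln, and Upk3b, a uroplakin of mesothelium, was at 17.1 and 49.2 CPM in mutant day 7. Spleen stroma, as 18 genes, also had its highest sum in mutant day 7 replicate 2, at 1840 CPM against 452 to 981 in the other 7 libraries. The order was not particular to fat and mesothelium. Sums of the stroma and lymphoid genes, and of duct epithelium, heart, lung and intestine lists, were higher in replicate 2 of every group. Those of skeletal muscle and red pulp macrophage lists were not. The part of any of these lists in the adipocyte values was not tested.

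The hepatocyte and the adipocyte members ranked the 2 mutant day 7 libraries in opposite order, at 526 and 70.6 CPM for hepatocyte members without Cyp2e1 and 82.3 and 985 for adipocyte members. In wild type day 7 the hepatocyte sums were alike (101 and 105) while the adipocyte sums differed (10.8 and 111). At day 0 adipocyte transcripts reached 126 CPM in libraries where hepatocyte transcripts, Cyp2e1 aside, were at 1.27 CPM or less.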

How the data were processed

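Spleen RNA of 8 libraries was measured. The authors deposited raw counts of reads per gene, 1 column per library, with 0 columns of other samples. Tools named per the submitters' processing notes are Trim Galore, Subread and featureCounts, and builds are hg38 and mm10. Tool versions, the annotation, strandedness and the treatment of multi-mapping reads were not given in the sources used here, so reads of near-identical genes (Serpina1a, Mup20, Try4 and Prss2) may be shared with their copies. The growth protocol describes cultured human cells and was not used.

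Symbols and gene positions came from GENCODE M21 (GRCm38), matched by Ensembl identifier, and promoters from RefSeq (GRCm38.p6). Genes were filtered by filterByExpr (minimum count 10, total 15), which left 17327, and counts were scaled by TMM. The 8 libraries entered a single edgeR model with 1 coefficient per group (version 4.0.16 under R 4.3.3, residual degrees of freedom 4), tested by quasi-likelihood F tests, adjusted over all genes by Benjamini-Hochberg at 0.05. DESeq2 1.42.0 and limma-voom (limma 3.58.1), other scaling, no filter, fewer libraries and a replicate term were alternatives. In simulated counts for irradiation in wild type over 17327 genes, the fit recovered 38.8% of 4-fold and 89.4% of 8-fold changes and 0% of 2-fold changes, with 0 false calls. Only a sample of the better-counted genes was changed, and all genes were given the same spread. This recovery does not apply to members near 0 counts at day 0 or with unequal replicates.

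The members, lists and motifs were chosen with earlier results of these data known. Values in every library are given for members with at least 20 counts in any library. Of each wider list the 4 genes of highest mean CPM were named, and of each tissue the 5 most correlated genes outside the list (mean CPM of at least 1, no predicted genes). Fold bounds set a pooled group at 0 to 3 counts.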

Additional observations from a re-analysis of the deposited data

How the results depend on the processing

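Counts of called genes moved with the settings. The sign of the day 7 difference stayed positive under all alternatives for the tested hepatocyte members in both genotypes, except Serpina1a and Cyp2e1 in wild type. With no low-count filter, the calls for irradiation in wild type were 11 hepatocyte members and 20 further hepatocyte genes, 1 further acinar and 1 further adipocyte gene. In mutants they were 14 and 40 for hepatocyte and 7 and 17 for adipocyte genes. Between genotypes they were 1 further hepatocyte gene and 1 adipocyte member at day 0, and at day 7 3 members and 6 further genes (hepatocyte) and 6 and 5 (adipocyte). For the interaction they were 1 hepatocyte member, 5 adipocyte members and 4 further adipocyte genes. Over all 29527 genes, this fit called 787 higher and 793 lower in wild type, and 1224 and 923 in mutants. Between genotypes it called 128 higher and 15 lower at day 0, and 154 and 14 at day 7. For the interaction it called 32 higher and 20 lower. DESeq2 called 10 hepatocyte members and 16 further hepatocyte genes in irradiated wild type with 1 further adipocyte gene. In mutants it called 13 and 30 with 1 adipocyte member and 8 further adipocyte genes. Between genotypes at day 7 it called 3 further hepatocyte genes and 1 further adipocyte gene, against 70 higher and 3 lower of all 17327 genes. Using only the libraries of the contrast gave 9 hepatocyte members, 13 further hepatocyte and 2 further adipocyte genes in wild type, 0 hepatocyte members and 0 further hepatocyte genes in mutants, and 1 further hepatocyte gene between genotypes at day 0. Over all genes this fit called 378 higher and 91 lower between genotypes at day 0. For irradiation it called 576 higher and 531 lower in wild type, and 0 in mutants. The cause was not tested, except that this fit has fewer libraries.

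With the replicate number as a block, 8 hepatocyte members and 10 further hepatocyte genes, and 4 adipocyte members and 2 further adipocyte genes, were called in mutants, and no other count moved by over 1.5 times. Over all genes, 136 were called higher and 117 lower in mutants. Same-numbered libraries share only a number: the correlation of the difference between replicates 2 and 1 across genes was 0.0427 (mutant day 0 with wild type day 7) to 0.541 (wild type with mutant day 7).

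Leaving out each library in turn, hepatocyte calls ranged from 0 to 11 members and 0 to 19 further genes for irradiation in wild type, 0 to 13 and 0 to 43 in mutants, and 0 to 5 and 0 to 6 between genotypes at day 7. Adipocyte calls ranged from 0 to 4 members and 0 to 14 further genes in irradiated mutants, with 0 to 6 further genes in wild type and 0 to 6 between genotypes at day 7. Acinar calls ranged from 0 to 1 member and 0 to 2 further genes in irradiated mutants, with 0 to 1 further gene in wild type and 0 to 1 between genotypes at day 7. The upper ends came from leaving out mutant day 7 replicate 1 or 2, and where an arm kept 1 library it was assumed to vary like the others. Calls over all genes rose in these fits as well, so the rise was not confined to the listed genes. Scaling by raw totals lowered all log2 differences at day 7 by 0.35 in wild type and 0.41 in mutants. At 3 counts per library, acinar members other than Cela1 and Prss2 were at or under the limit of detection in 5 libraries. Of these, Prss2 had 5 counts in wild type day 0 replicate 1 and 7 in wild type day 7 replicate 2.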
